A study of Homo sapiens with 18 samples.

Results

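The genes of glycolysis, of lactate handling, of the pyruvate dehydrogenase switch and of the pentose phosphate pathway were followed in prostate carcinoma cells with and without knockdown of TRIM24. The set was a list of 30 genes out of 19775 genes with a named probe set on the array. The genes were chosen by name and pathway role, with earlier results of these data known. Of these 30, 28 were measured, through 67 probe sets of a single gene symbol, and SLC16A1 and SLC16A3 were not analysed here. All 28 passed the filter on low values, which required the third-highest array value of a gene to reach the median of the whole table (5.879). SLC2A3 passed only through its arrays with DHT, and its brightest probe set was below that median on every other array.

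The study used LNCaP, an established prostate carcinoma line that responds to androgen, and its derivative LNCaP-abl, selected by long culture without androgen. The growth protocol, which names LNCaP only, gives 48 h of hormone starvation in serum stripped with charcoal and dextran, and the labels do not state this step separately for LNCaP-abl. LNCaP then received ethanol vehicle or 10 nM dihydrotestosterone (DHT), the most potent natural androgen, for 24 h, and LNCaP-abl received vehicle alone. In each of these 3 settings the cells carried either a control siRNA or an siRNA against TRIM24, a chromatin reader and nuclear receptor coregulator, for 48 h. This gave 6 groups of 3 arrays. The 6 groups were LNCaP with control siRNA and vehicle, LNCaP with TRIM24 siRNA and vehicle, LNCaP with control siRNA and DHT, LNCaP with TRIM24 siRNA and DHT, LNCaP-abl with control siRNA, and LNCaP-abl with TRIM24 siRNA. The labels do not say whether the 3 arrays of a group came from separate cultures, so the p-values reflect the spread among arrays only, and that spread may be technical. LNCaP-abl is a single derived line, and its difference from LNCaP cannot be told apart from a difference between any 2 lines kept apart in culture.

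Glycolysis splits glucose into pyruvate. Hexokinase traps glucose in the cell, phosphofructokinase commits it to breakdown, and the PFKFB enzymes set the level of fructose 2,6-bisphosphate, the strongest activator of phosphofructokinase. Lactate dehydrogenase turns pyruvate into lactate, or back, according to its LDHA and LDHB subunits. Pyruvate dehydrogenase kinases such as PDK1 switch off the complex that passes pyruvate to the citric acid cycle, and PGD, TKT and TALDO1 belong to the pentose phosphate pathway, a source of NADPH and ribose. Many glycolytic genes are known targets of the hypoxia-inducible factor HIF-1, which binds the letters ACGTG or GCGTG, and prostate cells are known for androgen-driven glucose uptake and metabolism.

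The promoters of HK2, LDHA and LDHB are shown because HK2 and LDHB differ most between the cell lines and HK2 and LDHA are higher with TRIM24 siRNA in LNCaP under DHT and lower in LNCaP-abl. Each is the 250 bases before the start of the RefSeq gene in GRCh38.p14, written 5′ to 3′ on the strand of the gene, with every ACGTG or GCGTG on either strand in capitals. HK2 starts at chr2:74834127 on the plus strand and its window is chr2:74833877-74834126. LDHA starts at chr11:18394563 on the plus strand and its window is chr11:18394313-18394562. LDHB lies on the minus strand and its window is chr12:21657843-21658092.
HK2: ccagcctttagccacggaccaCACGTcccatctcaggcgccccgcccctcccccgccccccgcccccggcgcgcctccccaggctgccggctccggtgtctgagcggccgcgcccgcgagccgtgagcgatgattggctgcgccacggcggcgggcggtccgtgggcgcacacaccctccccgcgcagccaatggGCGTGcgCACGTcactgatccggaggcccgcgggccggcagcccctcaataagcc
LDHA: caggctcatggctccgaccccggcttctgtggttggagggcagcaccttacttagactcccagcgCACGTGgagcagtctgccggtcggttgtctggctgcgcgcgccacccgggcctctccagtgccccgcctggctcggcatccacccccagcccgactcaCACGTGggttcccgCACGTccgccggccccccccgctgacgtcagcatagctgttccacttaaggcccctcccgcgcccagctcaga
LDHB: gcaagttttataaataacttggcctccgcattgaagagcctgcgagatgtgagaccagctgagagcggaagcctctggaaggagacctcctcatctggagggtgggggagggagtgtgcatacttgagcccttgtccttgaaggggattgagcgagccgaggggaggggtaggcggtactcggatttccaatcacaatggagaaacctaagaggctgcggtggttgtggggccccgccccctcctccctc
The HK2 window held 3 of these cores, the LDHA window held 5 and the LDHB window held none, counted on both strands, so that each CACGTG in the LDHA window counts on both.

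A promoter window was available for 27 of the 30 genes. An ACGTG or GCGTG, searched on both strands, was present in 15 of the 27 (55.6%), against 43.1% of 27305 promoters of the same length. ACGTG alone was in 37.0% of the members and 18.7% of all promoters, and GCGTG in 37.0% against 31.9%. The E-box CACGTG, which contains ACGTG on both strands, was in 11.1% of the members and 6.49% of all promoters. The androgen response element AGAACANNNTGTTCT was in 0 of the 27 and in 0.00366% of all promoters, which says only that these letters are absent from these windows. These matches are descriptions of sequence, and no binding was measured.

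RNA was measured on a whole-genome Affymetrix array, as log2 signal after the submitters' normalization, with 1 probe set per gene. A difference is the log2 difference between group means, ± is its standard error (SE) from limma, n is 3 arrays per group, and a gene was called where its Benjamini-Hochberg adjusted p over 13607 genes was under 0.05. Arrays of one group correlated at 0.996 to 0.998. TRIM24 itself was lower with its siRNA in each setting, by differences of -1.99 under vehicle, -2.14 under DHT and -2.08 in the abl line (SE 0.05 each). The luminal markers FOXA1 (10.75 to 11.22) and HOXB13 (10.24 to 10.81) were bright in every group, and the leukocyte marker PTPRC was at 3.13 to 3.54. Other markers of these kinds differed. Luminal KLK2 averaged 5.56 in LNCaP and 5.24 in LNCaP-abl, both with control siRNA and vehicle, and 10.51 after DHT. The fibroblast markers COL1A1 (7.15 to 7.58) and COL3A1 (4.29 to 6.78) and the endothelial marker VWF (6.07 to 6.75) were brighter than PTPRC. KLK3, the androgen target that encodes PSA, averaged 8.50 in vehicle-treated LNCaP, 14.12 after DHT and 5.70 in LNCaP-abl. The ACTB 3′ minus 5′ control signal, a sign of RNA quality, was higher with TRIM24 siRNA in each setting: from 1.87 to 2.05 under vehicle, from 1.85 to 2.19 under DHT and from 1.87 to 1.99 in LNCaP-abl. As in any bulk RNA, fewer cells of a type and less RNA per cell cannot be told apart.

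Across the 6 groups, 14 of the 28 genes had their highest mean in LNCaP with TRIM24 siRNA and DHT, and 18 had their lowest mean in LNCaP-abl with TRIM24 siRNA. The group means of 10 genes spanned more than 1 log2 unit: SLC2A1, SLC2A3, HK2, PFKP, PFKFB2, PFKFB3, PFKFB4, ENO2, LDHB and PDK1. The means of 13 genes spanned less than 0.5. Those 13 include most of the enzymes between aldolase and pyruvate kinase, with a span of 0.15 for PGK1 and 0.20 for PGAM1. These spans are of each gene's brightest probe set. With the mean of its probe sets, PGK1 rose by 0.22 after DHT with TRIM24 siRNA (limma, adjusted p = 1.81e-05). Most genes with spans over 1 belonged to glucose entry, phosphofructokinase and its regulators, lactate dehydrogenase and PDK1, but not all genes of these steps varied. GPI (0.29), PFKL (0.47) and PFKM (0.498) spanned less than 0.5. In lower glycolysis, ENO2 (1.08), ENO1 (0.97) and ALDOC (0.77) spanned more. The counts of highest and lowest means and of spans were not made over all genes, so they describe the members only. Levels of different genes are not compared, since probe sets differ in brightness.

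**Figure D1:**
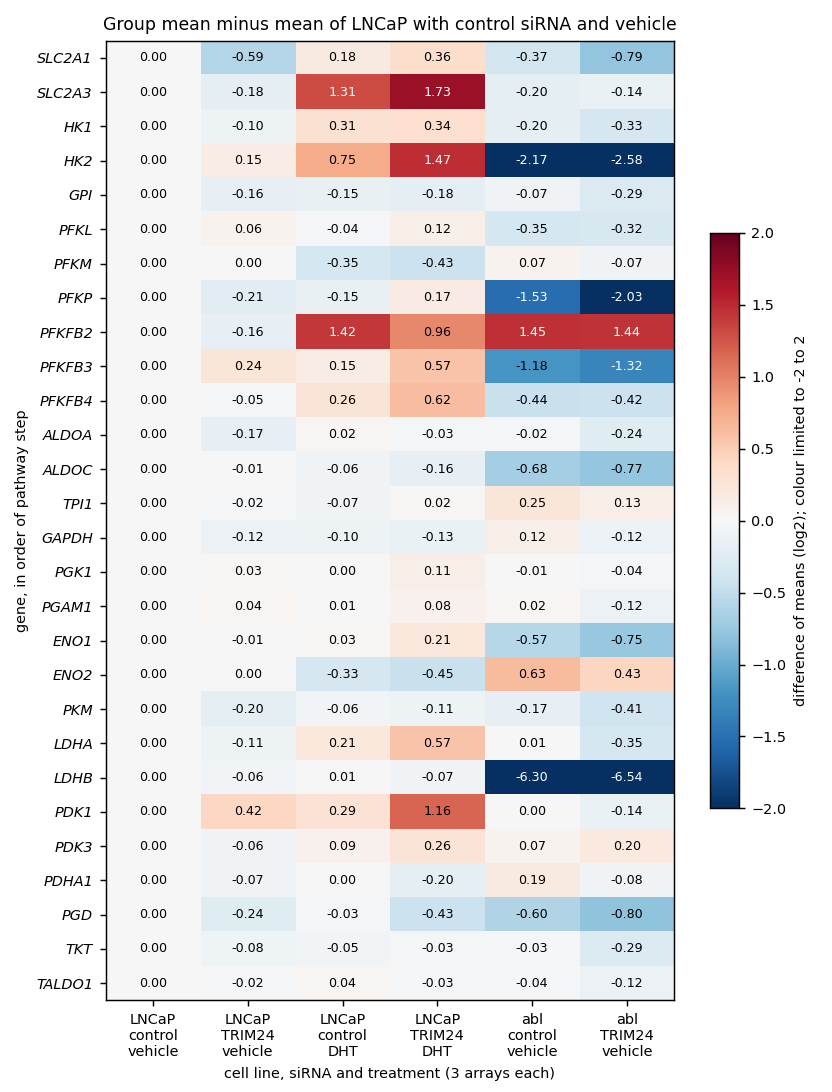
Group mean of each of the 28 measured genes minus its mean in LNCaP with control siRNA and vehicle (log2, printed in each cell, colour limited to -2 and 2), for the 6 groups of 3 arrays. LDHB and HK2 are lowest in the 2 LNCaP-abl columns, while SLC2A3, HK2 and PDK1 are highest in LNCaP with TRIM24 siRNA and DHT.

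LNCaP-abl differed from LNCaP most in LDHB, HK2, PFKP, PFKFB2 and PFKFB3. In control siRNA cells with vehicle, 5 of the 28 genes were higher in LNCaP-abl and 12 were lower. All genes tested were called higher at 29.1% and lower at 34.6%, against 17.9% and 42.9% of the members, and the median difference was -0.06 for the members and -0.02 for all genes. This comparison asks how the androgen-independent line differs from its parent when both received vehicle, and any difference in growth or starvation between the lines cannot be told apart from it.

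LDHB, the heart-type lactate dehydrogenase subunit, had the largest difference. Its 3 arrays read 12.98, 12.95 and 13.01 in LNCaP with control siRNA and vehicle, and 6.82, 6.28 and 6.93 in LNCaP-abl. Every LNCaP array of LDHB was at 12.90 or above and every LNCaP-abl array at 6.93 or below. The difference was -6.30 ± 0.12, a 78.9-fold lower signal (limma, adjusted p = 2.86e-16). A second LDHB probe set gave -8.16 ± 0.19, with 13.31 to 13.45 over the LNCaP arrays and 4.35 to 5.57 over the LNCaP-abl arrays. LDHA, the muscle-type subunit, showed a difference of 0.01 between the same groups and was not called.

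At glucose entry and the first committed steps most members were lower in LNCaP-abl. HK2, the inducible hexokinase, read 8.83, 8.84 and 8.84 in LNCaP with vehicle and 6.70, 6.74 and 6.56 in LNCaP-abl. The groups did not overlap, and HK2 was 4.51-fold lower in LNCaP-abl, a difference of -2.17 ± 0.05 (limma, adjusted p = 2.26e-15). Both dimmer HK2 probe sets were lower too, by differences of -0.88 and -1.74. HK1, the constitutive hexokinase, differed by -0.20 (limma, adjusted p = 0.00108), and SLC2A1, the basal glucose transporter GLUT1, by -0.37 (limma, adjusted p = 9.87e-05).

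PFKP, the platelet-type phosphofructokinase subunit, read 9.49, 9.44 and 9.54 in LNCaP with vehicle and 7.92, 7.95 and 8.02 in LNCaP-abl. That was 2.88-fold lower, again without overlap, with a difference of -1.53 (limma, adjusted p = 3.77e-14). The liver-type subunit PFKL differed by -0.34 and was called, while the muscle-type subunit PFKM had means of 11.04 and 11.11 and was not called. The phosphofructokinase subunits therefore differed unequally between the lines.

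The 3 measured PFKFB enzymes, which make and break fructose 2,6-bisphosphate, did not move the same way. PFKFB3, the isoform with the strongest kinase activity, read 7.99, 7.96 and 7.93 in LNCaP with vehicle and 6.73, 6.77 and 6.83 in LNCaP-abl, a 2.27-fold lower signal (difference -1.18 ± 0.05, limma, adjusted p = 1.72e-12). PFKFB4 was lower by a difference of -0.44. PFKFB2, the heart isoform, was instead higher in LNCaP-abl, at 8.61, 8.64 and 8.64 against 7.17, 7.39 and 6.96, a difference of 1.45 ± 0.08 or 2.74-fold (limma, adjusted p = 9.56e-11). Its second probe set also gave a higher value, 0.47.

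Lower down the pathway the differences were smaller. ALDOC, the brain-type aldolase, differed by -0.68 and ENO1, the common enolase, by -0.57, both lower in LNCaP-abl and called. ENO2, the enolase also used as a neuroendocrine marker, was higher by 0.63 (limma, adjusted p = 5.9e-08). The other neuroendocrine markers read in LNCaP with vehicle and LNCaP-abl were CHGA at 5.14 and 4.87, SYP at 6.33 in both and NCAM1 at 6.45 and 6.85, and their part in the ENO2 difference was not tested. TPI1 (0.25) and GAPDH (0.12), neighbouring enzymes of the triose stage, were higher in LNCaP-abl, and PKM, pyruvate kinase, was lower (-0.17).

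Beyond pyruvate, PDHA1, the catalytic subunit of pyruvate dehydrogenase, was higher in LNCaP-abl by 0.19, and PDK1 differed by 0.00 and was not called. PGD, which makes NADPH in the pentose phosphate pathway, read 10.31, 10.30 and 10.27 in LNCaP with vehicle and 9.70, 9.66 and 9.72 in LNCaP-abl. These groups did not overlap, with a difference of -0.60 (limma, adjusted p = 2.57e-09). TKT and TALDO1, the enzymes of its non-oxidative arm, were not called.

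Set against LNCaP with DHT, LNCaP-abl with control siRNA had 5 members higher and 15 lower (17.9% and 53.6%), while 33.2% and 34.4% of all genes were called. The 15 include SLC2A3, which passed the low-value filter only through its DHT arrays, so its call is not used as support. This comparison shares the LNCaP-abl control arrays with the one above, and it crosses hormone with cell line. HK2 differed by -2.92, LDHB by -6.31 and SLC2A3, whose LNCaP-abl arrays lay below the table's median, by -1.51. PFKFB2 differed by 0.04 and was not called against LNCaP with DHT (limma, adjusted p = 0.693). Its second probe set gave -1.01 and the mean of all its probe sets gave -0.31. The readings of PFKFB2 thus do not place LNCaP-abl at the same level. LDHA (-0.20) and PDK1 (-0.29) were lower in LNCaP-abl in this comparison.

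**Figure D2:**
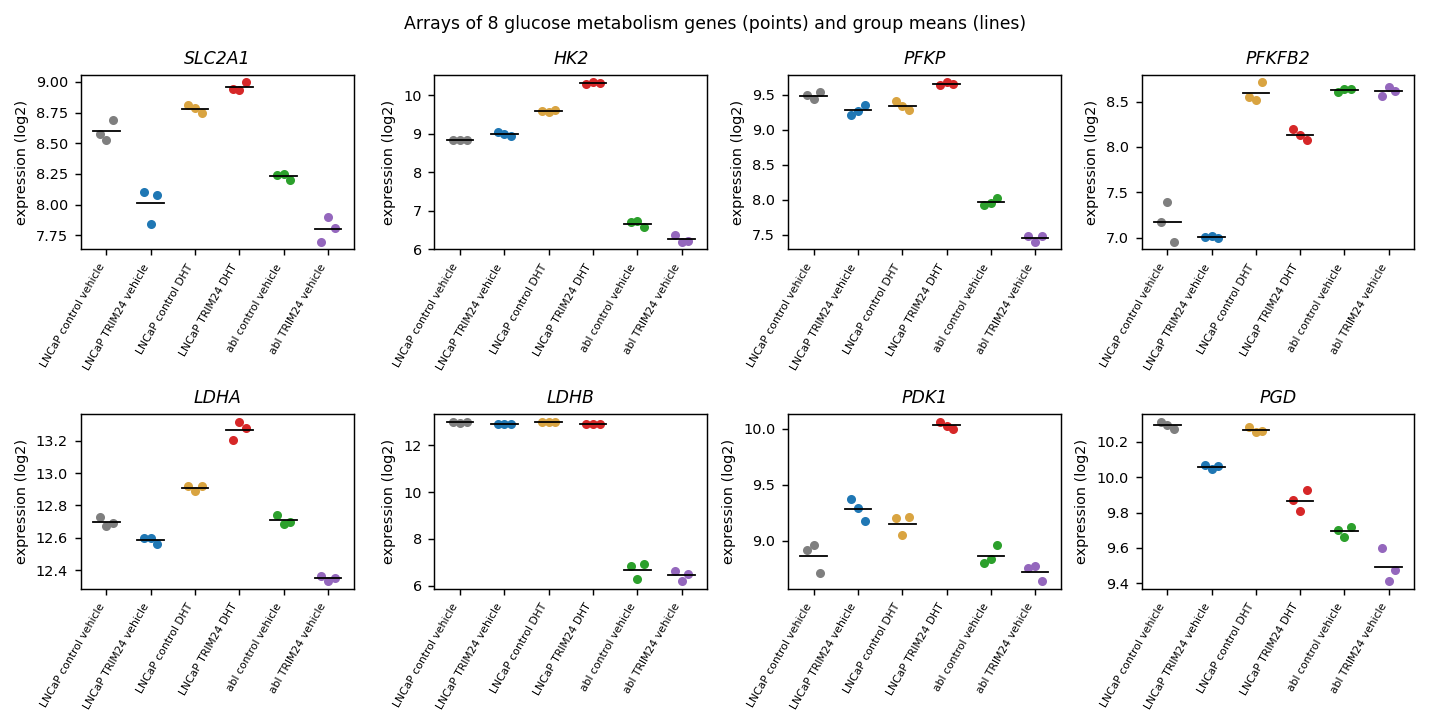
Log2 signal of each array (points) and group mean (lines) for SLC2A1, HK2, PFKP, PFKFB2, LDHA, LDHB, PDK1 and PGD in the 6 groups. The 3 arrays of LNCaP with TRIM24 siRNA and DHT lie above every other array for SLC2A1, HK2, LDHA and PDK1, and the LNCaP-abl arrays of LDHB lie at 6.93 or below.

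In LNCaP with control siRNA, DHT was followed by higher PFKFB2, HK2 and HK1 and by lower PFKM and ENO2. Of the 28 genes, 9 were higher and 5 lower after DHT (32.1% and 17.9%), against 19.4% higher and 26.4% lower over all genes. The 9 include SLC2A3, which passed the low-value filter only through its DHT arrays. Under quantile normalization the split was 7 higher and 7 lower. The count of 14 fell to 9 without the third array of LNCaP with control siRNA and vehicle. The shares of all genes given here are from the main fit, not from these other settings. The comparison asks which of these genes respond to androgen when TRIM24 is present.

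PFKFB2 read 7.17, 7.39 and 6.96 with vehicle and 8.55, 8.52 and 8.71 with DHT, so that no array overlapped. It rose by 1.42 ± 0.08, or 2.67-fold (limma, adjusted p = 3.64e-10), and its second probe set by 1.48. HK2 read 8.83, 8.84 and 8.84 with vehicle and 9.59, 9.55 and 9.62 with DHT, a rise of 0.75 (limma, adjusted p = 4.32e-09). The 2 dimmer HK2 probe sets differed by 0.04 and 0.02, and neither was called. HK1 rose by 0.31, LDHA by 0.21 and PDK1 by 0.29.

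SLC2A3, the high-affinity transporter GLUT3, is covered by several probe sets whose values differ. Its brightest set read 5.69, 5.69 and 5.77 with vehicle and 6.75, 6.67 and 7.65 with DHT, a rise of 1.31 ± 0.17. SLC2A3 passed the low-value filter only through its DHT arrays, so its call is not used as support for a DHT response. The third DHT array lay well above the other two, and all vehicle arrays lay below the table's median, where background can compress a difference. The second set read 3.43, 3.46 and 3.40 against 7.29, 6.85 and 6.94, a difference of 3.59, and another set gave 1.92. Of the pair of probe sets that SLC2A3 shares with SLC2A14, a near-identical paralog, one gave 0.99 and the other 2.62, and their signal cannot be assigned to either gene. All these sets were higher with DHT, but the size of the difference depended on the set and, with vehicle values this low, none is an exact fold.

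A few members were lower with DHT. PFKM fell by 0.34 (limma, adjusted p = 2.89e-07) and ENO2 fell by 0.33 (limma, adjusted p = 0.000152). The calls for SLC2A1 (0.18), PFKFB3 (0.15), PFKFB4 (0.26), GPI (-0.15), PFKP (-0.15) and GAPDH (-0.10) were each lost when one or another single array was left out.

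With TRIM24 siRNA, DHT was followed by 13 higher and 5 lower members (46.4% and 17.9%), against 16.9% and 26.6% of all genes. The 13 include SLC2A3, which passed the low-value filter only through its DHT arrays, so its call is not used as support here either. SLC2A1 rose from 8.11, 7.84 and 8.08 to 8.94, 8.94 and 8.99, a difference of 0.95 (limma, adjusted p = 3.89e-09). HK2 rose by 1.32, or 2.50-fold (limma, adjusted p = 3.37e-12), and LDHA by 0.68. SLC2A3 differed by 1.91 on its brightest set and 5.20 on its most variable one, both again from vehicle arrays below the table's median. PFKFB2 rose by 1.12, PFKFB4 by 0.67, PDK1 by 0.74 and PFKP by 0.37. PFKM (-0.43) and ENO2 (-0.45) were lower here too, and PGD fell by 0.19. The control and TRIM24 siRNA responses share no arrays, and the difference between them is the interaction given further on.

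**Figure D3:**
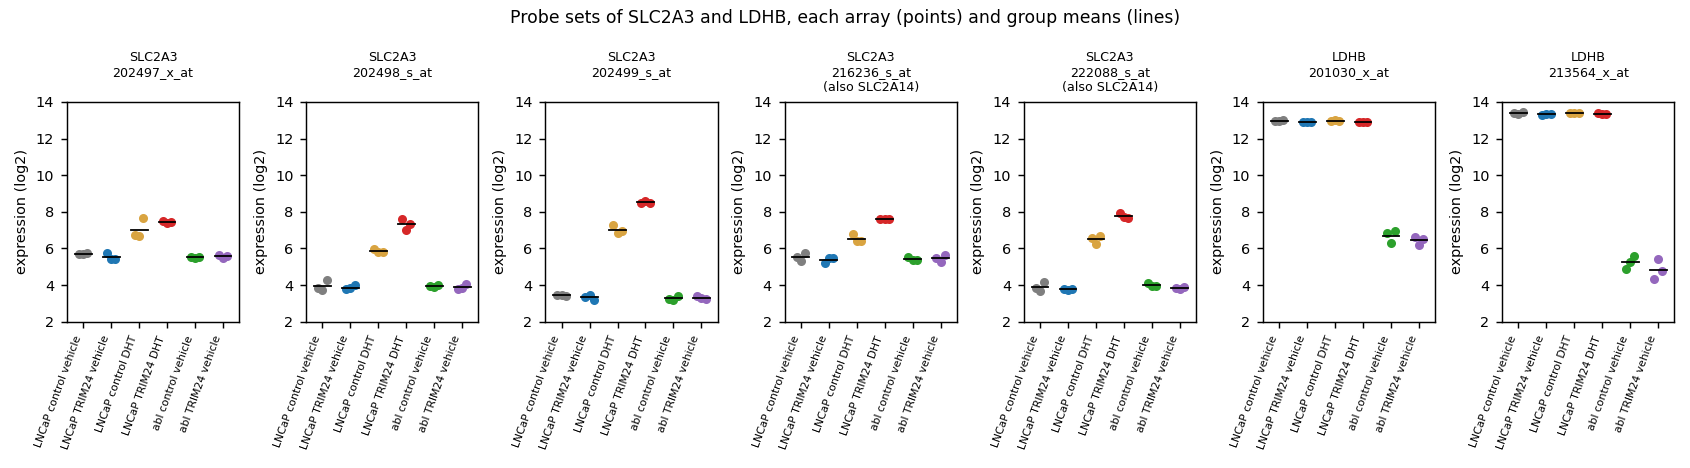
Log2 signal by array for the 5 probe sets that read SLC2A3, 2 of them shared with SLC2A14, and the 2 probe sets of LDHB, in the 6 groups. Every SLC2A3 set is highest in LNCaP with TRIM24 siRNA and DHT by group mean, and no LNCaP-abl array of either LDHB set is above 6.93.

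TRIM24 siRNA changed the same pathway differently in the 3 settings. With vehicle, 3 members rose and 8 fell (10.7% and 28.6%), with DHT 12 rose and 4 fell (42.9% and 14.3%), and in LNCaP-abl 1 rose and 18 fell (3.57% and 64.3%). Over all genes, 20.5% were higher and 18% lower under vehicle, 19.4% higher and 20.8% lower under DHT, and 16.7% higher and 28.8% lower in LNCaP-abl. The median member difference was -0.06, 0.05 and -0.17, and that of all genes was 0.00, 0.01 and -0.01. Centring each array on its median changed the split with DHT to 8 higher and 5 lower. With the ACTB 3′ to 5′ signal as a covariate, 6 members were higher and 3 lower with DHT. The shares of all genes given here are from the main fit, so these alternative splits describe the members only. The 3 knockdown comparisons ask what loss of TRIM24 does to the pathway with and without androgen and in the androgen-independent line.

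PDK1, the kinase that shuts off pyruvate dehydrogenase, rose with TRIM24 siRNA in LNCaP. With vehicle it read 8.92, 8.97 and 8.71 with control siRNA and 9.38, 9.29 and 9.18 with TRIM24 siRNA, a rise of 0.42 ± 0.07 (limma, adjusted p = 0.000177). With DHT it read 9.20, 9.05 and 9.21 against 10.06, 10.03 and 10.00, a rise of 0.87 ± 0.07 or 1.83-fold (limma, adjusted p = 6.14e-08). Neither pair of groups overlapped. In LNCaP-abl it read 8.80, 8.83 and 8.96 against 8.76, 8.78 and 8.64, where the difference of -0.14 ± 0.07 was not called although no array overlapped. A second PDK1 probe set gave 0.63 with DHT and 0.11 with vehicle, and the mean of its probe sets with vehicle, 0.13, was not called (limma, adjusted p = 0.0506). PDHA1, the target of this kinase, fell by 0.20 with DHT and by 0.26 in LNCaP-abl.

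HK2 rose with TRIM24 siRNA in LNCaP under DHT and fell in LNCaP-abl under vehicle, settings that differ in both hormone and cell line. With DHT its arrays read 9.59, 9.55 and 9.62 with control siRNA and 10.29, 10.33 and 10.32 with TRIM24 siRNA, 1.65-fold higher (limma, adjusted p = 1.35e-08), the highest HK2 arrays of the study. In LNCaP-abl it read 6.70, 6.74 and 6.56 against 6.38, 6.20 and 6.22, a fall of 0.40 (limma, adjusted p = 9.22e-06), the lowest. With vehicle the difference was 0.15 (limma, adjusted p = 0.028), a call lost on leaving out any of 5 arrays, and the mean of all HK2 probe sets turned it to -0.04. The 2 dimmer HK2 probe sets differed by 0.09 and 0.07 with DHT and were not called.

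SLC2A1 fell in LNCaP with vehicle and in LNCaP-abl. With vehicle it read 8.57, 8.53 and 8.69 with control siRNA and 8.11, 7.84 and 8.08 with TRIM24 siRNA, a difference of -0.59 ± 0.06 (limma, adjusted p = 2e-06). In LNCaP-abl it read 8.24, 8.25 and 8.20 against 7.70, 7.90 and 7.81, a difference of -0.43 (limma, adjusted p = 5.19e-05). Neither pair overlapped. With DHT it read 8.81, 8.79 and 8.75 against 8.94, 8.94 and 8.99. That difference was 0.17, and its call (limma, adjusted p = 0.0412) was lost on leaving out any one of the 6 arrays compared.

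SLC2A3 on its brightest probe set was not called with DHT (0.42; limma, adjusted p = 0.0682), and the spread lay in the third control array, at 7.65. Without that array the difference was 0.73 (limma, adjusted p = 5.05e-06). The 2 other sets of SLC2A3 alone gave 1.45 ± 0.14 and 1.498 ± 0.10 (limma, adjusted p = 6.15e-07 and 9.09e-09).

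PFKP was called in all 3 settings, unlike the other phosphofructokinase subunits. It read 9.49, 9.44 and 9.54 with control siRNA and vehicle and 9.22, 9.28 and 9.36 with TRIM24 siRNA, a difference of -0.21 (limma, adjusted p = 0.00164). With DHT it read 9.41, 9.34 and 9.28 against 9.64, 9.68 and 9.65, a rise of 0.32 (limma, adjusted p = 3.17e-05). In LNCaP-abl it fell by 0.51 (limma, adjusted p = 1.78e-07), from 7.92, 7.95 and 8.02 to 7.48, 7.40 and 7.49. No pair of groups overlapped, and PFKP was higher with DHT and lower in the other two settings. The PFKM differences, in the same order, were 0.00, -0.08 and -0.14, and only the last was called.

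Of the fructose 2,6-bisphosphate enzymes, PFKFB3 rose by 0.23 under vehicle and by 0.42 under DHT (limma, adjusted p = 0.000808 and 2.45e-06), and fell by 0.13 in LNCaP-abl, a call lost on leaving out any of 5 arrays. PFKFB4 was higher by 0.35 with DHT, from a mean of 7.72 to one of 8.08, but by 0.05 and uncalled with the ACTB covariate. PFKFB2 fell by 0.46 ± 0.08 with DHT (limma, adjusted p = 0.000203), at 8.20, 8.13 and 8.07 against 8.55, 8.52 and 8.71. Its second probe set gave -0.92 with vehicle and -1.002 with DHT (limma, adjusted p = 1.35e-05 and 4.99e-06), and both were called. PFKFB2 was thus lower with TRIM24 siRNA in LNCaP under DHT while PFKFB3 was higher.

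LDHA, which favours lactate formation, read 12.73, 12.67 and 12.69 with control siRNA and vehicle and 12.60, 12.60 and 12.56 with TRIM24 siRNA, a difference of -0.11 (limma, adjusted p = 0.0171) that was no longer called on leaving out either of 2 single arrays. With DHT it read 12.92, 12.89 and 12.92 against 13.20, 13.32 and 13.28. In LNCaP-abl it read 12.74, 12.68 and 12.70 against 12.37, 12.34 and 12.35. The differences in these 2 settings had opposite signs and adjusted p-values of 3.29e-07 and 3.4e-07 (limma). LDHB in LNCaP differed by -0.06 with vehicle and -0.08 with DHT and was called in neither. In LNCaP-abl its difference of -0.23 was not called (limma, adjusted p = 0.139), and was -0.43 without the second control array (limma, adjusted p = 0.000561).

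PGD was the member that fell in all 3 settings on its brightest probe set. It read 10.31, 10.30 and 10.27 against 10.07, 10.04 and 10.06 with vehicle, a difference of -0.24 ± 0.04 (limma, adjusted p = 0.000299). With DHT it read 10.28, 10.25 and 10.26 against 9.87, 9.81 and 9.93, a difference of -0.40 ± 0.04 (limma, adjusted p = 1.36e-06). In LNCaP-abl it read 9.70, 9.66 and 9.72 against 9.60, 9.41 and 9.47, a difference of -0.20. The groups did not overlap in any setting. The mean of all PGD probe sets gave -0.11, -0.10 and 0.04 and was called in none of the settings. TKT fell in LNCaP-abl alone among the 3 settings on its brightest probe set (-0.26, limma, adjusted p = 0.000236), but other readings differed. Its most variable set gave -0.29 with vehicle (limma, adjusted p = 0.00142) and -0.15 in LNCaP-abl, where it was not called (limma, adjusted p = 0.064). The mean of its sets gave -0.17 with vehicle and was called (limma, adjusted p = 0.00381). TALDO1 was called in none of the 9 comparisons.

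The remaining members shifted by less. In LNCaP-abl, GPI (-0.21), ALDOA (-0.21), TPI1 (-0.11), GAPDH (-0.24), PGAM1 (-0.13), ENO1 (-0.19), ENO2 (-0.20) and PKM (-0.24) fell, as did PFKM (-0.14). The ENO1 value was 0.03 with the mean of its probe sets. HK1 (-0.13) was called too, but the call was lost under 3 of the alternatives and on leaving out any of 4 single arrays. With vehicle, GPI (-0.17), ALDOA (-0.17), GAPDH (-0.12) and PKM (-0.20) fell. With DHT, ENO1 rose by 0.18, but its most variable probe set gave 0.08 and was not called (limma, adjusted p = 0.158). Also with DHT, the calls for PFKL (0.16), ALDOC (-0.10), TPI1 (0.09) and PGK1 (0.11) were each lost in several of the alternatives. Each of these 4 was also lost on leaving out any of 2 or more single arrays. PDK3, a second pyruvate dehydrogenase kinase, was higher by 0.17 with DHT and 0.13 in LNCaP-abl, where another of its probe sets gave -0.57. The PDK3 call with DHT was lost under 3 of the alternatives, and the mean of its probe sets gave 0.03.

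**Figure D4:**
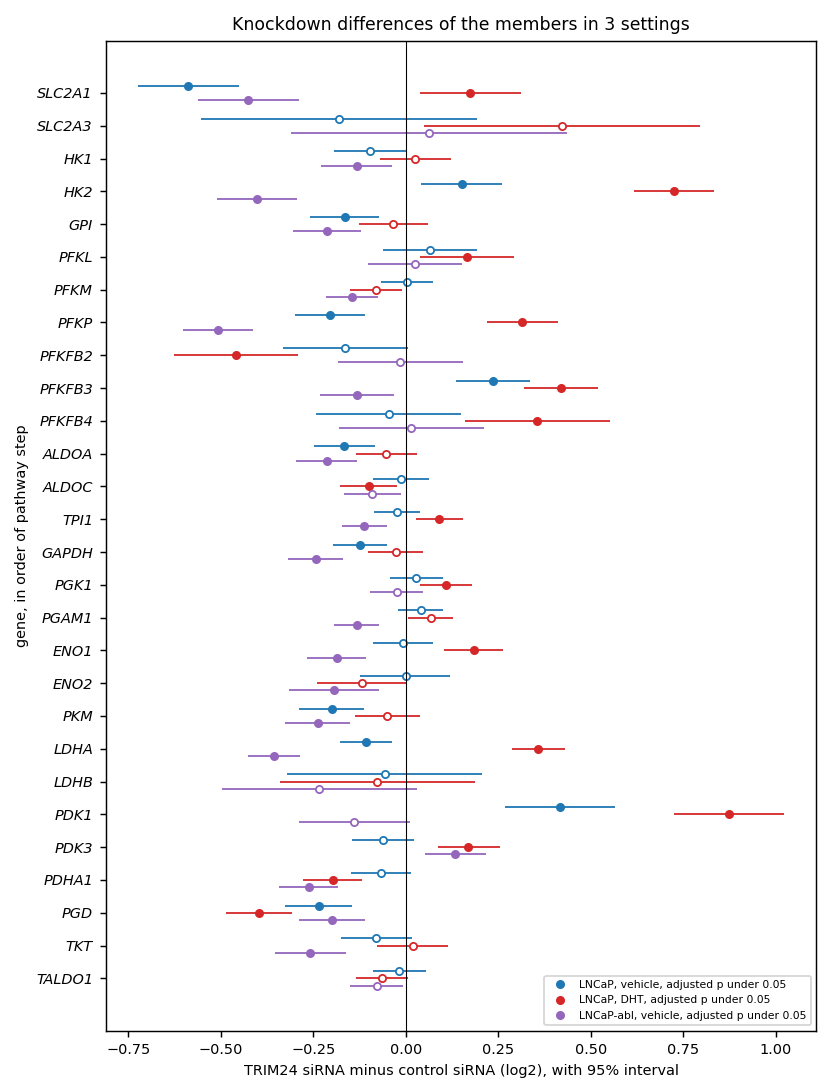
Log2 difference between TRIM24 and control siRNA with its 95% interval for the 28 genes in LNCaP under either hormone state and in LNCaP-abl (3 arrays per group; filled points have an adjusted p under 0.05). HK2 and LDHA lie above 0 with DHT and below 0 in LNCaP-abl, PDK1 is highest with DHT, and PGD lies below 0 in all 3 settings.

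The interaction with DHT asks whether TRIM24 siRNA acts differently with hormone than with vehicle. It was positive and called for 7 members and negative and called for 0, that is 25% and 0%, against 5.38% and 5.70% of all genes. Because the members were chosen with earlier results of these data known, these shares are descriptions and no test of the set. The 7 were SLC2A1 (0.76 ± 0.09), HK2 (0.57 ± 0.07), PFKP (0.52 ± 0.06), LDHA (0.47 ± 0.05), PDK1 (0.46 ± 0.10), PDK3 (0.23 ± 0.06) and ENO1 (0.19 ± 0.05). Their adjusted p-values from limma were 8.06e-05, 0.000125, 9.76e-05, 2.19e-05, 0.00783, 0.014 and 0.0303. The median interaction was 0.11 for the members and -0.01 for all genes.

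On their brightest probe sets, SLC2A1, PFKP and LDHA were lower with TRIM24 siRNA under vehicle and higher under DHT. HK2 and PDK1 were higher under both and more so with DHT. The calls for SLC2A1 under DHT, and for HK2 and LDHA under vehicle, were lost on leaving out single arrays. With the mean of all probe sets, the vehicle difference was -0.04 for HK2 and 0.13 for PDK1, and neither was called. The ENO1 call at 0.05 was lost under 5 of the alternatives and on leaving out any of 6 arrays, and the PDK3 call under both other ways of reading its probe sets. A second PDK1 probe set gave 0.52 (limma, adjusted p = 0.0149). PGK1, not called on its brightest set, gave 0.21 with the mean of its probe sets (limma, adjusted p = 0.00787). SLC2A3 gave 0.60 ± 0.25 and was not called on its brightest set (limma, adjusted p = 0.137). That set gave 0.91 without the third array of LNCaP with control siRNA and DHT, and the other 2 sets gave 1.53 and 1.60. The vehicle arrays of the brightest set lay below the table's median. An ACGTG or GCGTG was in the promoter window of 4 of the 7 (57.1%) and of 11 of 19 other members (57.9%), so neither group of promoters held the cores much more often.

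The interaction with cell line compares the effect of TRIM24 siRNA in LNCaP-abl with that in LNCaP under vehicle, and shares its vehicle arrays with the DHT interaction. It was negative and called for 10 members and positive for 1 (35.7% and 3.57%), against 19.9% and 8.58% of all genes. The largest were PDK1 (-0.56), HK2 (-0.55), PFKFB3 (-0.37), PFKP (-0.30) and LDHA (-0.25), with limma adjusted p-values of 0.000736, 5.08e-05, 0.000807, 0.00243 and 0.00115. HK2, PFKFB3 and PDK1 were higher with TRIM24 siRNA in LNCaP under vehicle and lower or uncalled in LNCaP-abl. PFKP and LDHA were lower in both lines but more so in LNCaP-abl. The HK2 and LDHA calls in LNCaP under vehicle, and the PFKFB3 call in LNCaP-abl, were lost on leaving out single arrays. A second PDK1 probe set gave -0.08, and with the mean of all probe sets HK2 and PFKP each gave -0.13 and were not called. The TKT call (-0.18) was lost under 6 of the alternatives and on leaving out any of 15 single arrays. SLC2A1 and PGD were not called in this interaction.

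Genes of neighbouring pathways, on lists that hold no member, give the setting for these values. The lists too were chosen with earlier results of these data known. Of 11 measured genes that hypoxia is known to induce outside glycolysis, TRIM24 siRNA raised 9 with vehicle and 10 with DHT and lowered 0 in either. In LNCaP-abl 3 rose and 5 fell. Over all genes, 20.5%, 19.4% and 16.7% rose in these settings. The DHT interaction was called for 8 of the 11, all positive, with a median of 0.23, against 5.38% higher and 5.70% lower over all genes. P4HA1, a collagen prolyl hydroxylase, rose by 0.19 and 0.69, and HILPDA, a lipid droplet protein, by 0.16 and 0.57, with vehicle and DHT. Of 17 regulators of glucose genes, 4 rose and 4 fell with vehicle, 5 rose and 6 fell with DHT, and 3 rose and 8 fell in LNCaP-abl. The shares were 23.5%, 29.4% and 17.6% higher and 23.5%, 35.3% and 47.1% lower, while 18%, 20.8% and 28.8% of all genes fell. HIF1A, the regulated subunit of HIF-1, rose by 0.25 under vehicle and 0.49 under DHT and was not called in LNCaP-abl (-0.04; limma, adjusted p = 0.4). MYC, a known activator of glycolytic genes, rose by 0.44, 0.62 and 0.23 in the 3 settings. ARNT, the partner of HIF1A, was lower in all 3 (-0.21, -0.44 and -0.41), with a DHT interaction of -0.23 (limma, adjusted p = 0.0355). VHL, which targets HIF1A for degradation, rose by 0.49, 0.32 and 0.39. The list thus held called genes in both directions.

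Among 27 other measured genes of glycolysis and sugar transport, 5 rose and 7 fell with vehicle, 8 rose and 6 fell with DHT, and 6 rose and 5 fell in LNCaP-abl. As shares these were 18.5%, 29.6% and 22.2% higher and 25.9%, 22.2% and 18.5% lower. Over all genes, 20.5%, 19.4% and 16.7% were higher and 18%, 20.8% and 28.8% lower in these settings. SLC2A6, a hexose transporter, rose by 0.28, 0.37 and 0.52 in the 3 settings, and SLC2A12, another transporter, differed by -0.58 with vehicle and -0.51 with DHT. In LNCaP-abl against LNCaP with vehicle, GALM, the enzyme that flips glucose between its ring forms, was higher by 2.98 and SLC16A7, the lactate and pyruvate transporter MCT2, lower (-2.98). GALM averaged 5.00 in LNCaP and SLC16A7 5.07 in LNCaP-abl, both below the table's median, so neither difference is an exact fold. With DHT and control siRNA, 5 of the 27 rose and 11 fell, 18.5% and 40.7% against 19.4% and 26.4% of all genes. GPD1L rose by 1.06 and PGM2 by 0.84 there, while SLC2A6 fell by 0.39. Of 9 other pentose phosphate genes, 4 rose and 0 fell with vehicle, 4 rose and 1 fell with DHT, and 4 rose and 2 fell in LNCaP-abl. That was 44.4% higher in each setting, and 0%, 11.1% and 22.2% lower, beside the shares of all genes given above. RPIA, which interconverts pentose phosphates, rose by 0.38 with vehicle and by 0.40 with DHT in LNCaP, while PGD fell. In LNCaP-abl against LNCaP with vehicle, PGLS, the lactonase just before PGD, differed by -1.49.

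At the gate to the citric acid cycle, 6 of 9 genes of the pyruvate dehydrogenase complex and pyruvate carriers fell under vehicle, 5 under DHT and 7 in LNCaP-abl, with 1 higher in each. PDHX, which anchors a subunit of the complex, was lower in all 3 settings (-1.25, -1.17 and -1.18), as was DLAT, its acetyltransferase (-0.59, -0.53 and -0.57). Of 13 citric acid cycle genes, 4, 5 and 6 fell and 2, 1 and 1 rose in the 3 settings, and the shares that fell were 30.8%, 38.5% and 46.2%, against 18%, 20.8% and 28.8% of all genes. In LNCaP, the rise of PDK1 thus stood beside lower PDHX and DLAT in the same arrays.

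Genes of the G2 and M phases moved with TRIM24 siRNA as well: of 12, 10 fell under vehicle, 10 under DHT and 11 in LNCaP-abl, with median differences of -0.35, -0.58 and -1.60. In LNCaP-abl they fell alongside 18 of the 28 members, and in LNCaP with DHT they fell while 12 members rose. Over all genes, 18%, 20.8% and 28.8% fell in the 3 settings, and 19.4% rose with DHT. The part of cell division in the members' values was not tested.

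**Figure D5:**
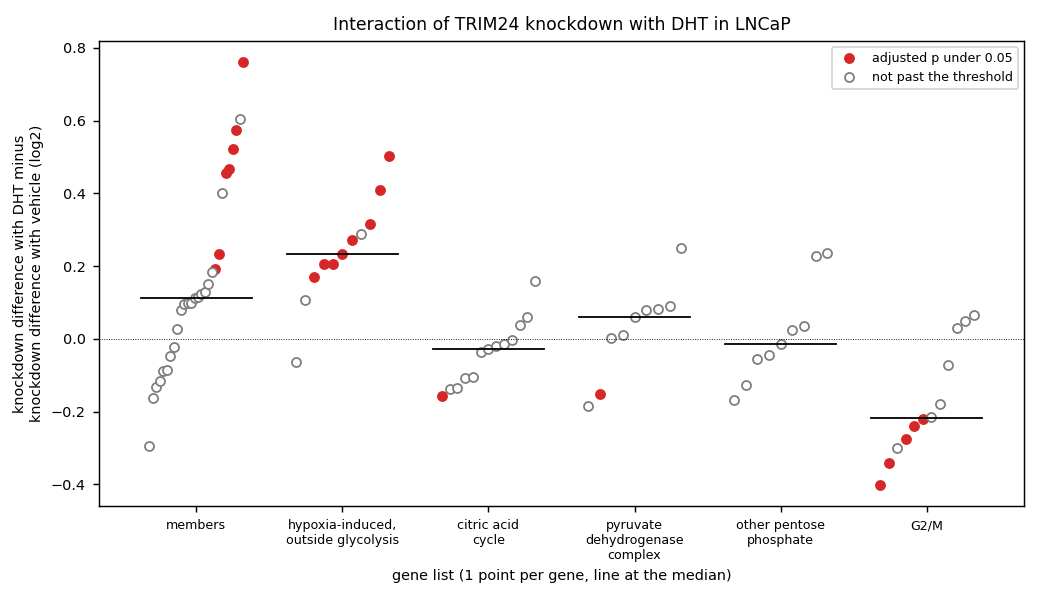
Interaction of TRIM24 siRNA with DHT (log2) for each gene of 6 lists: the members, genes induced by hypoxia outside glycolysis, citric acid cycle, pyruvate dehydrogenase complex and carriers, other pentose phosphate genes, and G2 and M phase genes. Red points have an adjusted p under 0.05 and lines mark medians; the 7 called members and the 8 called hypoxia genes all lie above 0.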

How the data were processed

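RNA of 18 samples, 6 groups of 3, was measured on a whole-genome Affymetrix array of 54675 probe sets. The authors deposited log2 values after RMA, per the submitters' processing notes, with its version and the scan dates not given in the sources used here. Array medians lay at 5.826 to 5.929, and all columns were used. RMA takes quantiles across arrays, so a change shared by most genes is removed.

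Probe sets were named by GEO's platform annotation (41097 with 1 symbol, 1801 with several, 11777 with none), with 41043 symbols updated through gene IDs. Each gene was read by its probe set with the highest mean. Genes whose third-highest value reached the table's median, 5.879, were kept (13607). All 18 arrays were fitted on group means with limma 3.58.1 in R 4.3.3 (12 residual degrees of freedom), tests were two-sided, and p-values were Benjamini-Hochberg adjusted over all genes tested. The fit was tested on simulated data. The number of arrays limits the precision. The genes named were all measured members, and from each other list and comparison up to 3 called genes with the smallest adjusted p; a gene so named is also given in other settings. Members and lists were chosen with earlier results of these data known. Alternatives covered filters, probe set choice, centring, quantile normalization, the samples fitted, variance models, array weights, the replicate number as a block, ACTB 3′ to 5′ signal, a threshold of 0.01 and leaving out each array. Promoter windows come from RefSeq (GRCh38.p14).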

Additional observations from a re-analysis of the deposited data

Results flagged for a closer look

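The response to TRIM24 siRNA differed between hormone states, by an interaction in limma, for SLC2A1 (0.76), HK2 (0.57), PFKP (0.52), LDHA (0.47), PDK1 (0.46), PDK3 (0.23) and ENO1 (0.19), each the log2 difference with DHT minus that with vehicle. Their adjusted p-values ran from 2.19e-05 for LDHA to 0.0303 for ENO1.

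The response differed between the cell lines, LNCaP-abl minus LNCaP under vehicle, for PDK1 (-0.56), HK2 (-0.55), PFKFB3 (-0.37), PFKP (-0.30), LDHA (-0.25), PDHA1 (-0.20), PDK3 (0.20), ENO1 (-0.18), TKT (-0.18), PGAM1 (-0.17) and PFKM (-0.15). Their adjusted p-values from limma ran from 5.08e-05 for HK2 to 0.0497 for TKT. The sign turned with another reading of the probe sets for PDK3, for ENO1 (0.085 with their mean) and for TKT (0.14 with the most variable set), and the TKT call was lost under 6 of the alternatives and on leaving out any of 15 single arrays.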

How the results depend on the processing

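Of 252 gene results in 9 comparisons, 133 were called, and 85 of these calls held at 0.05 in all alternatives and on leaving out each array in turn. With the ACTB 3′ to 5′ signal as a covariate, 9 members were called with TRIM24 siRNA under DHT instead of 16. At an adjusted p under 0.01, 8 instead of 14 were called for DHT with control siRNA, and 6 instead of 11 for the interaction with cell line. Without the low-value filter, the probe sets of members called went from 19 to 12 for TRIM24 siRNA with vehicle and from 16 to 9 for the interaction with cell line. Leaving out single arrays gave 9 to 14 called members for DHT with control siRNA, with 9 without the third array of LNCaP with control siRNA and vehicle. No share of all genes under the same settings is set beside these counts, so they describe the members only.

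Values called under at least one of the settings compared changed sign only with another reading of probe sets. With the mean of all probe sets, the TRIM24 siRNA difference was -0.044 for HK2 with vehicle, and in LNCaP-abl 0.033 for ENO1, -0.20 for PDK3 and 0.04 for PGD. LNCaP-abl then differed from LNCaP with vehicle by -0.37 for PDK3 and 0.10 for TKT, and from LNCaP with DHT by -0.31 for PFKFB2, and the interaction with cell line was 0.085 for ENO1 and -0.071 for PDK3. With the most variable probe set, PDK3 gave -0.57 for TRIM24 siRNA in LNCaP-abl, -0.58 between the lines with vehicle and -0.48 for the interaction with cell line. PFKFB2 gave -1.01 against LNCaP with DHT, and TKT gave 0.34 between the lines with vehicle and 0.14 for the interaction with cell line. The cause was not tested.

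The replicate number as a block gave 11, 15, 19, 14, 18, 17, 20, 7 and 10 called members in the 9 comparisons, against 11, 16, 19, 14, 18, 17, 20, 7 and 11 without it. Samples of the same number did not pair: 6 of 45 correlations of their deviations were over 0.1 (range -0.297 to 0.196). Differences of about 0.1 lie near the limit that 3 arrays per group can call, and the second LDHB probe set lay below the table's median (5.879) on all LNCaP-abl arrays, where background can limit a fold change.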
